A study of Mus musculus with 8 samples.

Results

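The 10 mast cell transcripts described here were chosen by gene name from the 39527 genes of the deposited table, and all 10 were found. They are the tryptase genes Tpsb2 and Tpsab1, the chymase genes Cma1 and Mcpt4, the carboxypeptidase gene Cpa3, the receptor genes Kit, Ms4a2, Fcer1a and Mrgprb1, and Hdc, which makes histamine. All 10 reached 1 FPKM (fragments per kilobase, scaled to library depth) in every library, so the filter on low values removed none. They were read in RNA of cells labelled ILC2, group 2 innate lymphoid cells, sorted from mouse visceral fat.

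Mast cells are tissue-resident granulocytes that store histamine, heparin and neutral proteases in granules. Their growth depends on KIT, the receptor for stem cell factor, and IgE bound to the receptor FcεRI triggers the release of the granules. Connective tissue mast cells of the mouse carry chymases, tryptases and carboxypeptidase A3 together, whereas mucosal mast cells carry the chymases Mcpt1 and Mcpt2. Mast cells reside in adipose tissue, carry the interleukin-33 receptor as ILC2s do, and depend on the transcription factor GATA2, which binds GATA motifs.

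There were 4 libraries from mice on a high-fat diet (H1 to H4) and 4 from mice on a normal diet (N1 to N4). All mice were wild-type male C57BL/6 mice, 14 weeks old, kept on their diet from the age of 6 weeks for 8 weeks, and epididymal visceral adipose tissue was the source of the cells. The comparison asks how each diet bears on the transcripts of the sorted cells. The labels do not say whether a library is 1 animal or a pool, nor which gate was used for the sort, so p-values cover no more than library-to-library spread, part of which may be technical.

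Libraries held 9005363 to 15752815 recovered reads, and H2 was the shallowest. These reads are whole numbers derived from the deposited values. The count of a gene is known only up to a factor shared by all libraries, so totals and shares of reads are approximate. All 15 genes of a list of ILC2 genes passed the filter. Gata3, a factor of the ILC2 lineage, stood at 623, 566, 687 and 714.5 FPKM in H1 to H4, against 904, 1044, 835 and 1145 FPKM in N1 to N4. H2 stood apart for the mast cell transcripts: it was the lowest of the 8 libraries for each of the 10. It also stood apart over the whole table, with 13663 genes at 1 FPKM or more against 10763 to 11905 in the other libraries. The diet differences and co-variation of the 10 are therefore given with and without it.

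Tpsb2, Cma1 and Cpa3, all proteases, had the highest mean levels of the 10. Tpsb2 (ENSMUSG00000033825, chr17:25366305-25369098, plus strand, mm10), a tryptase of the secretory granule, stood at 4237, 966, 2327 and 4145 FPKM in H1 to H4, against 2287, 4258, 4844 and 4638 FPKM in N1 to N4. H2 was the lowest and N1 and H3 were next, and the diets overlapped. Ranked by FPKM among all genes without values below 0, Tpsb2 was 11th, 66th, 21st and 11th in H1 to H4 and 29th, 11th, 7th and 7th in N1 to N4. Its level was 6.80, 1.71, 3.39 and 5.80 times that of Gata3 in H1 to H4, against 2.53, 4.08, 5.80 and 4.05 times in N1 to N4, but Gata3 itself fell on the high-fat diet (log2 fold change -0.59, limma, adjusted p = 0.0449).

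Tpsab1 (ENSMUSG00000024173, chr17:25343245-25345562, minus strand), the other tryptase gene, lies 20742 bases from Tpsb2. It stood at 380, 152, 213 and 361 FPKM in H1 to H4, against 242, 304, 452 and 444 FPKM in N1 to N4. The order of the libraries was near that of Tpsb2, with N3 and N4 at the top. The annotated transcripts of Tpsb2 and Tpsab1 share 0 stretches of 50 bases, and those of Cma1 and Mcpt4 share 0 as well, so reads of that length do not match both members of a pair exactly.

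Cma1 (ENSMUSG00000022225, chr14:55941451-55944675, minus strand), a chymase of connective tissue mast cells, stood at 1448, 308, 890 and 1471 FPKM in H1 to H4, against 659, 1023, 1485 and 1863 FPKM in N1 to N4. Mcpt4 (ENSMUSG00000061068, chr14:56059629-56062313, minus strand), a chymase that cleaves peptides and matrix proteins, lies 114953 bases from Cma1 and stood at 743, 84.8, 295 and 417 FPKM in H1 to H4, against 197, 192, 310 and 374 FPKM in N1 to N4. Cpa3 (ENSMUSG00000001865, chr3:20215620-20242181, minus strand), a carboxypeptidase that trims the products of chymases, stood at 1094, 197, 494 and 830 FPKM in H1 to H4, against 373, 349, 659 and 691 FPKM in N1 to N4. For Mcpt4 and Cpa3 the highest library was H1, whereas for Cma1 it was N4. Among the 10 genes, Cpa3 alone overlaps another annotated gene, that of the microRNA Mir7007, on the same strand.

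Shown are the bases before the transcription start of Cpa3, Mcpt4 and Cma1, and of Ms4a2, which held the most GATA matches. They are the 250 bases upstream of the start from RefSeq (GRCm38.p6), 5′ to 3′ on the strand of the gene, and capitals mark AGATAA or TGATAA or their reverse complements.
Cpa3 (chr3:20242182-20242431, minus strand): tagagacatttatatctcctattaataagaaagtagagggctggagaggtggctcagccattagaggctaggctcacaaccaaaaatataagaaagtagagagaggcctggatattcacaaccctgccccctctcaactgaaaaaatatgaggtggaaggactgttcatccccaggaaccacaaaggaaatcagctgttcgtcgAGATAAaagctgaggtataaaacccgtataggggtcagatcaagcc
Mcpt4 (chr14:56062311-56062560, minus strand): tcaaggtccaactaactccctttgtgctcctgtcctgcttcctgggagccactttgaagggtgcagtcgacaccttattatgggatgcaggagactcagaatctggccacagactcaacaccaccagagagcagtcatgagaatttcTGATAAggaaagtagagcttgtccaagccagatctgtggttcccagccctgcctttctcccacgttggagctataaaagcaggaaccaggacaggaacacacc
Cma1 (chr14:55944676-55944925, minus strand): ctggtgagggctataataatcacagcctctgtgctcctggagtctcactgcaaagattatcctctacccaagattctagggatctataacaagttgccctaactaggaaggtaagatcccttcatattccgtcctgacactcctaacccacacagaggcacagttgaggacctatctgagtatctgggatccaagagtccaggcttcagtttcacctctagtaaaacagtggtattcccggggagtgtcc
Ms4a2 (chr19:11623720-11623969, minus strand): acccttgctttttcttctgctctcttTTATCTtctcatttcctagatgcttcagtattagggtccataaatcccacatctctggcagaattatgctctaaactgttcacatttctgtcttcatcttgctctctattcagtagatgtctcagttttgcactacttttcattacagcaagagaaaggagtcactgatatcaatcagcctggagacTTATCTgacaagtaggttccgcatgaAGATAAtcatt
RefSeq upstream sequences were matched for 8 of the 10 genes, and those of Tpsb2 and Tpsab1 were not used here. Either motif, on either strand, was present upstream of 4 of the 8, namely Cpa3, Mcpt4, Fcer1a and Ms4a2, and upstream of 16.6% of 32817 promoters of the same length. AGATAG and TGATAG, which also hold the letters GATA, were not searched. Cma1, where nothing is marked, holds AGATAG on the opposite strand. The match began 46 bases before the start in Cpa3 and 103 bases before it in Mcpt4. In Ms4a2 there were 3 matches, at 11, 37 and 224 bases, and in Fcer1a 1 match, at 92 bases. An E-box (CACGTG or CATGTG, either strand), the class of site that MITF can bind, was present in 1 of the 8, Fcer1a, and in 17.6% of all promoters. The matches did not overlap each other and are a description of letters, not of binding. Any bearing of them on the co-variation was not tested.

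The receptors Mrgprb1, Fcer1a and Ms4a2 were lower than every granule protease in each library. Kit, described below, exceeded Mcpt4 in H2 (111 against 84.8 FPKM). Mrgprb1 (ENSMUSG00000070547, chr7:48444113-48456342, minus strand), a receptor of the Mas-related family, stood at 199, 60.4, 115 and 205 FPKM in H1 to H4, against 159, 178, 279 and 270 FPKM in N1 to N4. Fcer1a (ENSMUSG00000005339, chr1:173221284-173227214, minus strand), the IgE-binding chain of FcεRI, stood at 142, 33.4, 58.5 and 137 FPKM in H1 to H4, against 72.2, 101, 147 and 124 FPKM in N1 to N4. Ms4a2 (ENSMUSG00000024680, chr19:11615523-11623719, minus strand), its signal-amplifying beta chain, stood at 47.0, 17.1, 26.7 and 44.8 FPKM in H1 to H4, against 31.6, 58.8, 78.6 and 63.9 FPKM in N1 to N4. For these 3 receptors H2 was lowest, the diets overlapped, and H1 and H4 lay well above H2 and H3.

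Kit varied least from library to library of the 10. Kit (ENSMUSG00000005672, chr5:75574916-75656722, plus strand), which haematopoietic progenitors carry as well, stood at 124, 111, 146 and 175 FPKM in H1 to H4, against 127, 179, 168 and 235 FPKM in N1 to N4. Its highest value was 2.11 times its lowest, against 8.77 times for Mcpt4, which varied most of the 10. Hdc (ENSMUSG00000027360, chr2:126593667-126619299, minus strand), histidine decarboxylase, which basophils use as well, stood at 388, 187, 245 and 444 FPKM in H1 to H4, against 367, 661, 631 and 585 FPKM in N1 to N4. The normal-diet libraries N2, N3 and N4 exceeded every high-fat library for Hdc, and N1 lay among the high-fat libraries. These levels rest on 210 reads or more for each gene and library, the lowest being Ms4a2 in H2.

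**Figure D1:**
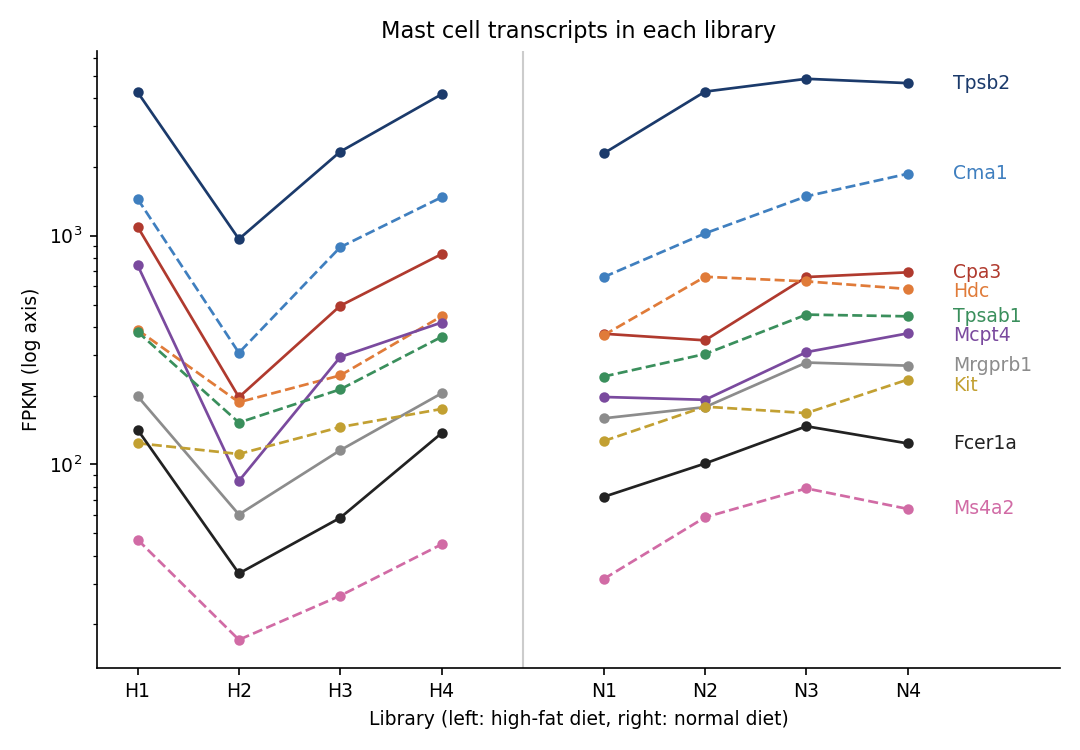
FPKM (log axis) of the 10 mast cell transcripts in each library, high-fat diet at the left and normal diet at the right; each line joins the points of 1 gene, and the libraries of a diet have no order. H2 is the lowest point of every line, and Tpsb2 lies above the other 9 genes in all libraries.

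By mean FPKM over the 8 libraries the order was Tpsb2, Cma1, Cpa3, Hdc, Mcpt4, Tpsab1, Mrgprb1, Kit, Fcer1a and Ms4a2. Each of 4 steps held in all 8 libraries: Tpsb2 above Cma1 (by 1.62 ± 0.24 on the log2 scale, mean ± SD over libraries), Cma1 above Cpa3 (0.96 ± 0.39), Tpsab1 above Mrgprb1 (0.84 ± 0.22) and Fcer1a above Ms4a2 (1.12 ± 0.31). Kit exceeded Fcer1a in 7 of 8 libraries, by 0.74 ± 0.61. The other neighbours did not differ beyond their spread: Cpa3 and Hdc (0.36 ± 0.75), Hdc and Mcpt4 (0.55 ± 0.87), Mcpt4 and Tpsab1 (-0.12 ± 0.62), and Mrgprb1 and Kit (0.12 ± 0.53).

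Together the 10 genes took 0.896%, 0.293%, 0.560% and 0.856% of the reads of H1 to H4, against 0.487%, 0.606%, 0.946% and 0.959% of those of N1 to N4. The Wilson 95% intervals reach at most 0.00517 percentage points either way and cover counting error only. The share averaged 0.651% ± 0.282 on the high-fat diet, against 0.750% ± 0.240 on the normal diet (SD, n = 4 each), and 0.771% ± 0.184 on the high-fat diet without H2 (n = 3). Libraries of 1 diet thus differed more than the diet means did. H2 combined the lowest share with the fewest reads, and N1, the next shallowest, had the second lowest share. Over the 8 libraries the log2 summed level of 7 of the 10 (without Kit, Hdc and Fcer1a) had r = 0.92 and rho = 0.74 with recovered reads, r = 0.73 without the 2 libraries of farthest depth (H2 and H4) and 0.71 without H2. With the number of genes at 1 FPKM or more it had r = -0.86 and rho = -0.48, and r = -0.40 without H2. These are descriptions of 8 libraries, and depth and mast cell level moved together in them. In RNA of a sorted population, fewer cells of a type and less RNA per cell cannot be told apart.

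**Figure D2:**
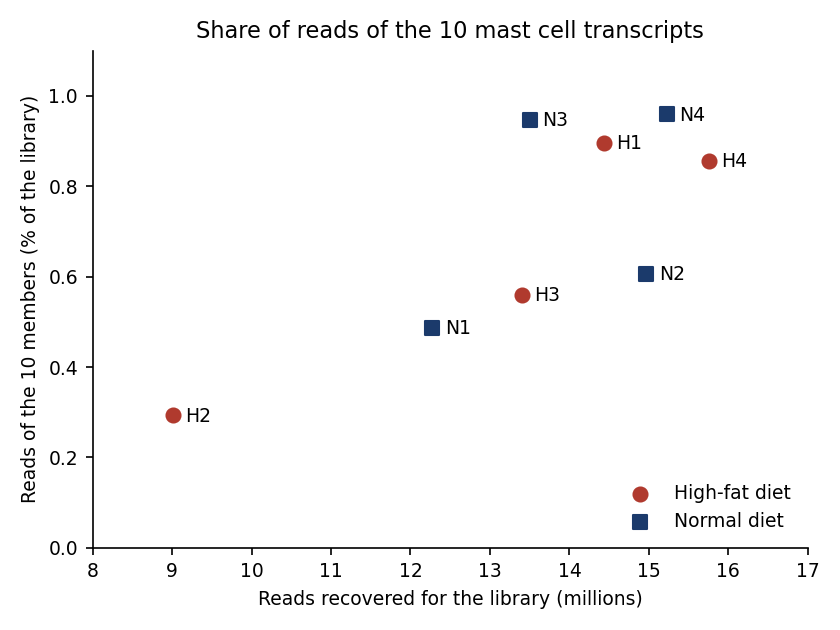
Reads of the 10 mast cell transcripts as a percent of all reads recovered for a library (vertical axis) against those reads (horizontal axis), for 4 high-fat (circles) and 4 normal-diet (squares) libraries. H2, with 9005363 reads, has the lowest share at 0.293%, and the diets overlap.

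The 10 transcripts went up and down together over the libraries. Over the 45 pairs of genes the median Pearson r of log2(FPKM + 1) was 0.86, with a range of 0.33 to 0.98, over 8 libraries. By exact permutation tests adjusted over the 45 pairs, 34 pairs passed 0.05 for Pearson's r and 15 for Spearman's rho. The lowest r among those 34 was 0.74, a value reached by 3.96% of the 65923903 pairs of all tested genes, whose median r was 0.04 (0.02 without H2). With each diet's mean subtracted, the median r was 0.93. Without H2 it was 0.68, with a range of -0.15 to 0.97, and without the 2 libraries farthest from the median of the gene on the x axis it was 0.58. The strength of the co-variation over all pairs thus rests in part on H2.

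The relation differed from pair to pair. Tpsab1 and Mrgprb1 had r = 0.97 and rho = 0.98 (exact permutation, adjusted p = 0.00167 and 0.00595), r = 0.94 without the 2 farthest libraries and 0.97 without H2. Tpsb2 and Ms4a2 had r = 0.95 and rho = 0.98 (exact permutation, adjusted p = 0.00186 and 0.00595) and r = 0.93 without the 2 farthest libraries. Mcpt4 and Cpa3 formed the closest pair, with r = 0.98 and rho = 1 (exact permutation, adjusted p = 0.00112 and 0.00223), and r = 0.97 without the 2 farthest libraries and without H2. These pairs kept their relation without the shallowest library.

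With the diets pooled, Mcpt4 and Cpa3 followed each other more closely than they followed the rest. Mcpt4 with Tpsb2 had r = 0.77 and rho = 0.45 (exact permutation, adjusted p = 0.0361 and 0.317), and r = 0.15 without the 2 farthest libraries. Cpa3 with Hdc had r = 0.48 and rho = 0.24 (exact permutation, adjusted p = 0.254 and 0.609), and r = 0.13 without the 2 farthest libraries. With the diets pooled, those relations thus rest on the libraries left out or were not detected. With each diet's mean subtracted, Mcpt4 with Tpsb2 had r = 0.91 and Cpa3 with Hdc 0.78, against 0.98 for Mcpt4 with Cpa3. In that form the median r over 9 pairs was 0.91 for Mcpt4 and 0.94 for Cpa3, and the lowest were 0.46 and 0.51. Over its 9 pairs Kit had a median r of 0.71, the lowest of the 10 genes over 8 libraries, and 0.56 without H2. Without H2 the medians of Mcpt4 (0.41) and Cpa3 (0.52) were lower than that of Kit. The deposited values carry a factor that recurs from gene to gene. With it divided out, over 8 libraries, the medians were 0.78 for Mcpt4, 0.82 for Cpa3 and 0.85 for Kit, so Kit was then not the lowest. Differences between 2 correlations were not tested.

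**Figure D3:**
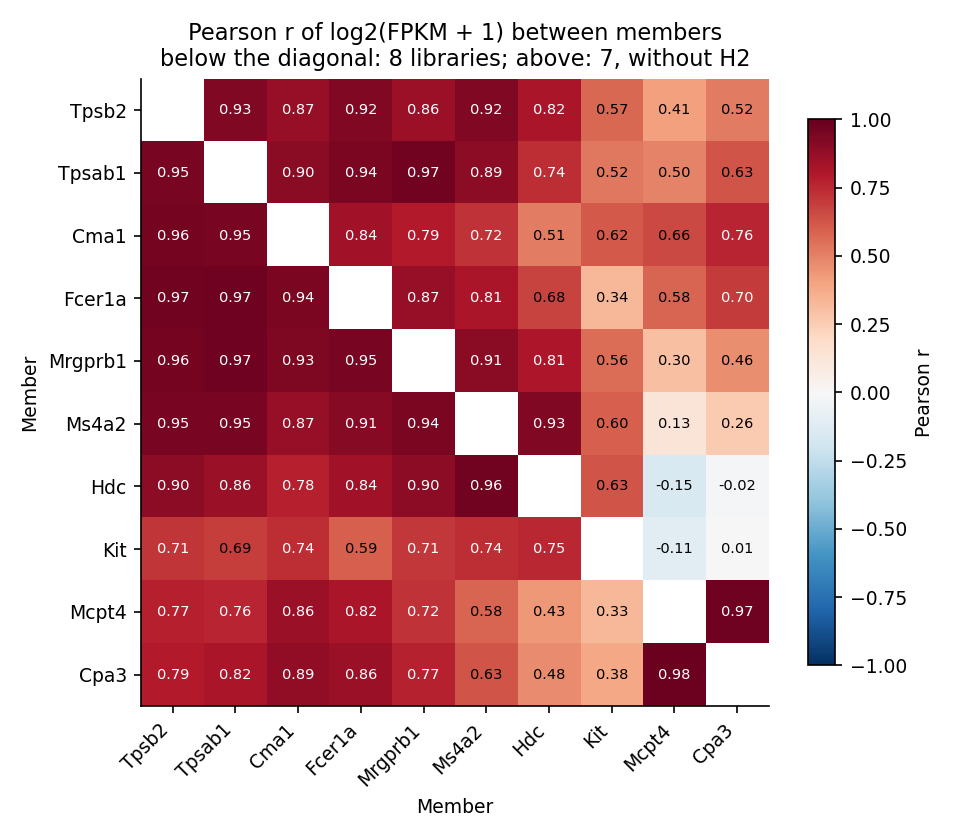
Pearson r of log2(FPKM + 1) for each pair of the 10 genes (both axes), over 8 libraries below the diagonal and over 7 libraries, without H2, above it; darker red is a higher r. Mcpt4 and Cpa3 stay at 0.97 without H2, whereas their r with Hdc and Kit is near 0 or below it.

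Diet differences were tested with limma over all 11483 genes that passed the filter, and none of the 10 mast cell transcripts was called at an adjusted p under 0.05. Of all tested genes 2.86% were called, 0.975% higher and 1.88% lower on the high-fat diet. At an unadjusted p under 0.05 there was 1 of the 10, Hdc, against 18.1% of all tested genes, and limma voom on the recovered reads also called 0 of 10 adjusted and 1 of 10 unadjusted. The unadjusted count was 4 of 10 without H4 (Hdc, Kit, Mrgprb1 and Ms4a2), 3 of 10 without N1 (Hdc, Kit and Ms4a2) and 0 of 10 without both H2 and N2. No member had diets that did not overlap, against 11.1% of all tested genes. The median log2 fold change was -0.44 over the 10, with 8 below 0, against -0.02 over all tested genes, of which 52.1% lay below 0. Without H2 the median over the 10 was -0.17, with 7 below 0, and without H1 it was -0.69, with 10 below 0.

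Over 8 libraries Hdc had the largest difference of the 10, averaging 316 ± 120 FPKM on the high-fat diet against 561 ± 133 FPKM on the normal diet (SD, n = 4 each). The log2 difference came to -0.87 (standard error 0.28, 95% interval -1.50 to -0.25; limma, adjusted p = 0.131). Without H2 it was -0.65 (adjusted p = 0.151), smaller in size than that of Mcpt4, and over all 17 other settings it lay between -1.07 and -0.56, with adjusted p between 0.0749 and 0.299. Ms4a2 averaged 33.9 ± 14.4 FPKM on the high-fat diet against 58.2 ± 19.6 FPKM on the normal diet, a log2 fold change of -0.80 with an interval of -1.64 to 0.05 (limma, adjusted p = 0.302), and -0.52 without H2. For Mrgprb1 the average was 145 ± 69.5 FPKM on the high-fat diet against 222 ± 61.8 FPKM on the normal diet, a log2 fold change of -0.72 with an interval of -1.65 to 0.21 (limma, adjusted p = 0.396), and -0.36 without H2.

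The granule proteases were spread on both sides of 0. Tpsb2 averaged 2919 ± 1571 FPKM on the high-fat diet against 4007 ± 1172 FPKM on the normal diet, a log2 fold change of -0.62 with an interval of -1.81 to 0.58 (limma, adjusted p = 0.588), and -0.16 without H2. The fold changes of Tpsab1 and Cma1 were -0.43 and -0.42 (limma, adjusted p = 0.530 and 0.776), and without H2 they were -0.18 for Tpsab1 and 0.08 for Cma1. Mcpt4 averaged 385 ± 276 FPKM on the high-fat diet against 268 ± 89.1 FPKM on the normal diet, a log2 fold change of 0.21 with an interval of -1.35 to 1.77 (limma, adjusted p = 0.912). Cpa3 averaged 654 ± 391 FPKM on the high-fat diet against 518 ± 182 FPKM on the normal diet, a log2 fold change of 0.14 with an interval of -1.16 to 1.45 (limma, adjusted p = 0.930). Without H2 these were 0.81 for Mcpt4 and 0.63 for Cpa3 (adjusted p = 0.278 and 0.376), and without H1 they were -0.23 and -0.19. Kit and Fcer1a differed by -0.33 and -0.44 (limma, adjusted p = 0.388 and 0.709), and without H2 by -0.24 and -0.04. The intervals of Mcpt4 and Cpa3 include differences of over 2-fold in both directions, so the data do not show that the diets are alike.

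**Figure D4:**
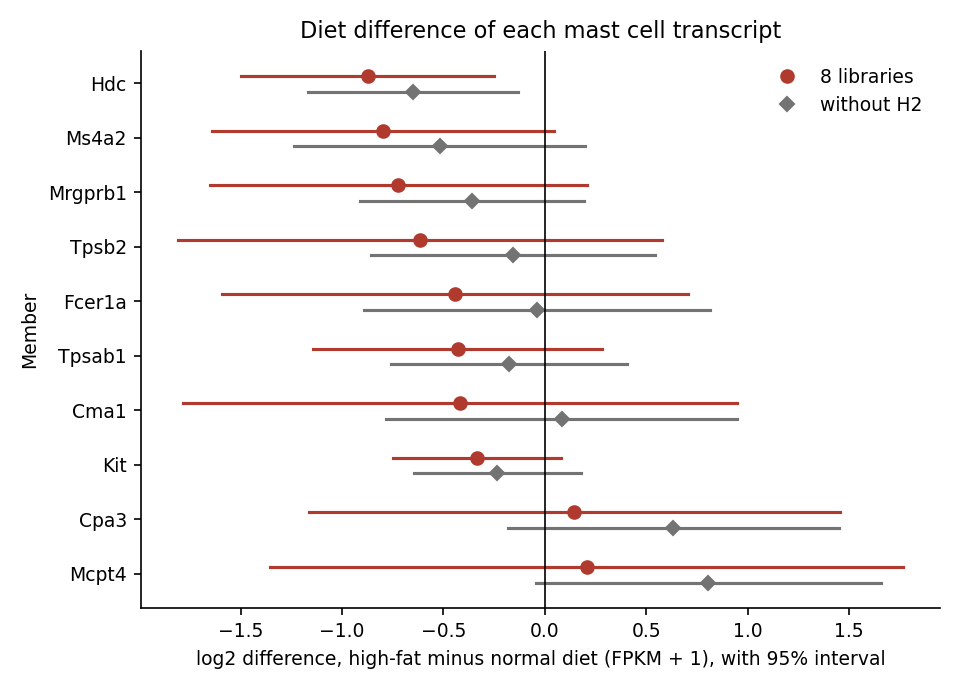
log2 difference (high-fat minus normal diet, FPKM + 1) of each gene with its 95% interval from limma, over 8 libraries (circles) and without H2 (diamonds). All intervals but that of Hdc include 0, and all circles except those of Cpa3 and Mcpt4 lie below 0.

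Set against Tpsb2 in the same library, Cpa3 and Mcpt4 did part the diets. This measure was chosen after the values were seen. Cpa3 came to 25.8%, 20.4%, 21.2% and 20.03% of the Tpsb2 level in H1 to H4, against 16.3%, 8.19%, 13.6% and 14.9% in N1 to N4. Mcpt4 came to 17.5%, 8.78%, 12.7% and 10.1% in H1 to H4, against 8.62%, 4.50%, 6.39% and 8.06% in N1 to N4. Every high-fat library thus lay above every normal-diet library for both genes, H2 included. The ratio was 1.70-fold higher on the high-fat diet for Cpa3 and 1.77-fold higher for Mcpt4. No p is given, since the measure was chosen for what it showed.

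These were 2 of the 9 genes set against Tpsb2, while 3.02% of all 11482 tested genes but Tpsb2 had diets that did not overlap on the same measure, all of them higher on the high-fat diet. Mcpt4 and Cpa3 vary together, so they are not independent. The deposited values carry a factor that recurs from gene to gene, and with it divided out Cpa3 came to 18.7% to 25.5% in H1 to H4 against 10.4% to 15.9% in N1 to N4, and Mcpt4 to 9.59% to 14.8% in H1 to H4 against 5.34% to 8.26% in N1 to N4, again without overlap. The background was then 2.80%, and 2.79% counting those higher on the high-fat diet.

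The separation depended on the gene set in the denominator. Set against the mean log2 level of all 10 genes instead, Mcpt4 overlapped between the diets in both forms of the values, and Cpa3 overlapped once the factor was divided out. Mrgprb1 was then the gene whose diets did not overlap in either form, at -1.03 to -0.92 in H1 to H4 against -0.84 to -0.55 in N1 to N4 as deposited (log2 scale). On this measure 1.90% of all tested genes did not overlap as deposited and 2.04% with the factor divided out. Among the 45 ratios between members, 8 did not overlap as deposited, 11 with the factor divided out and 6 in both forms. Over all pairs of tested genes above 0 in every library the shares were 12.2% as deposited and 15.7% with the factor divided out. No such share was computed for both forms at once, and ratios that share a gene are not independent. Those 6 were Cpa3 and Mcpt4 each over Tpsb2 and over Mrgprb1, Cpa3 over Fcer1a, and Tpsab1 over Mrgprb1, all higher on the high-fat diet.

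The other 7 genes overlapped between the diets when set against Tpsb2. Cma1 came to 34.2%, 31.9%, 38.2% and 35.5% of Tpsb2 in H1 to H4, against 28.8%, 24.0%, 30.7% and 40.2% in N1 to N4. With the factor divided out it lay between 31.8% and 39.7% in the high-fat libraries, against a narrow range of 29.2% to 31.8% in the normal-diet libraries. Tpsab1 came to 8.98%, 15.8%, 9.15% and 8.71% in H1 to H4, against 7.14% to 10.6% in N1 to N4. Kit came to 11.5% in H2, against 2.93% to 6.26% in the other high-fat libraries and 3.46% to 5.53% in the normal-diet libraries.

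**Figure D5:**
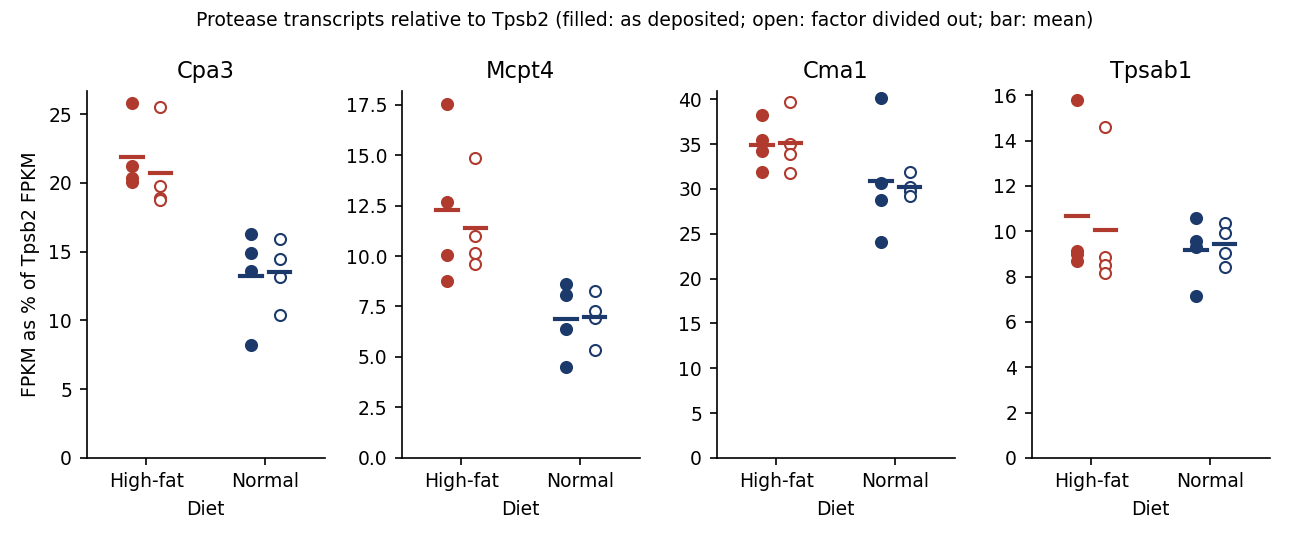
FPKM of Cpa3, Mcpt4, Cma1 and Tpsab1 as a percent of Tpsb2 FPKM in the same library, high-fat diet at the left of each panel and normal diet at the right, 4 libraries each; bars are means, filled points are values as deposited and open points have the recycled factor divided out. Cpa3 and Mcpt4 do not overlap between the diets in either form, while Cma1 and Tpsab1 overlap in both.

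Other genes of mast cells were measured in a list of 21, of which 18 passed the filter. Of the 18, 2 fell on the high-fat diet and none rose (of all tested genes 1.88% fell). The median log2 fold change of the 18 was -0.50, with 17 below 0. Slc18a2, the vesicular transporter that loads histamine and serotonin, fell to 26.4 ± 6.44 FPKM on the high-fat diet, against 44.5 ± 5.21 FPKM on the normal diet (SD, n = 4 each; log2 fold change -0.76, limma, adjusted p = 0.0315). Hs3st1, a heparan sulfotransferase that other cells also use, fell to 404 ± 98.7 FPKM in high-fat libraries, against 794 ± 127 FPKM in normal-diet libraries (-0.99, adjusted p = 0.0112). Slc18a2 was lowest in H2, at 19.2 FPKM, as the proteases were, whereas Hs3st1 had its highest high-fat value there, at 506 FPKM. The mucosal chymases Mcpt1 and Mcpt2, and Mcpt9, stayed under 1 FPKM in all 8 libraries. Slc18a2 remained called in 6 of 17 other settings, with adjusted p reaching 0.109, and lost its call when any of H1, H3, N2, N3 and N4 was left out. Hs3st1 lost its call without H3 or H4 (adjusted p = 0.0502 and 0.0527).

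In the list of IgE receptor and KIT signalling, 15 of 16 genes passed the filter, 1 fell and none rose (of all tested genes 1.88% fell). Gab2, an adaptor downstream of KIT and FcεRI, fell to 10.2 ± 2.06 FPKM on the high-fat diet, against 20.9 ± 2.66 FPKM on the normal diet (SD, n = 4 each; log2 fold change -0.98, limma, adjusted p = 0.0065), and was called in all 17 other settings. Fcer1g, the signalling chain that FcεRI shares with other Fc receptors, stood at 141, 28.1, 58.6 and 116 FPKM in H1 to H4, against 70.5, 90.7, 130 and 122 FPKM in N1 to N4 (-0.47, adjusted p = 0.700). Kitl, which encodes the ligand of KIT, stayed under 1 FPKM throughout. Among 7 tested genes of histamine, prostaglandin and leukotriene synthesis and breakdown, 1 fell and none rose, against the same 1.88%. Alox5, which starts leukotriene synthesis, fell to 238 ± 33.9 FPKM in high-fat libraries, against 519 ± 99.8 FPKM in normal-diet libraries (-1.11, adjusted p = 0.0033), in all 17 other settings as well. With the log2 summed level of the mast cell genes without Kit, Hdc and Fcer1a, Gab2 had r = 0.46 and Alox5 0.41. Without H2 the values were 0.04 and 0.22. Hpgds, a prostaglandin D synthase of mast cells that ILC2s also carry, averaged 30.6 ± 11.8 FPKM in high-fat libraries against 44.8 ± 14.6 FPKM in normal-diet libraries (-0.57, adjusted p = 0.360).

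The genes whose pattern was most like that of the summed mast cell level were sought among 13075 genes other than the 10, by Pearson r of log2 values over 8 libraries; genes with only a provisional name were not ranked. The sum left out Kit, Hdc and Fcer1a. The 10 closest were Adk (r = 0.99), Fcer1g (0.98), Cd63 (0.98), Atg4b (0.98), Kcne3 (0.98), Lat2 (0.98), Gata2 (0.98), Prss34 (0.97), Sirpa (0.97) and Apoe (0.97). Gata2, a transcription factor of mast cells and basophils, stood at 35.9, 6.11, 20.8 and 32.3 FPKM in H1 to H4, against 17, 20.5, 35.0 and 33.2 FPKM in N1 to N4. Cd63, a granule membrane protein, stood at 176, 49.96, 90.4 and 167 FPKM in H1 to H4, against 102, 136, 205 and 199 FPKM in N1 to N4. Without H2 the r of these 10 genes lay between 0.91 and 0.96, but the ranking changed. Of the 10, Adk and Cd63 were then still among the 10 closest, which were led by Rint1 (r = 0.99), Gcsam (0.98), Gtf2ird2 (0.97) and Srsf1 (0.96). Over all 8 libraries Gtf2ird2 and Srsf1 had r = 0.17 and 0.43. The libraries share their depth as well as their mast cell level.

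Markers of other cells that a sort of fat could hold were summed per library. Basophil markers (10 genes, of which Gata2, Prss34 and Cd200r3 are also in the mast cell list) came to 95.7 to 370 FPKM in H1 to H4, against 214 to 412 FPKM in N1 to N4. Mcpt8, the defining basophil protease, was at 6.63 to 33.1 FPKM in H1 to H4, against 13.9 to 15.8 FPKM in N1 to N4. Eosinophil genes summed to 3.31 to 5.27 FPKM in H1 to H4 and 1.19 to 4.68 FPKM in N1 to N4, with 9 of 10 under 1 FPKM in every library and Prg3 at 0. Neutrophil genes came to 1.19 to 7.46 FPKM in the high-fat libraries and 2.64 to 4.27 FPKM in the normal-diet libraries, with 7 of 10 under 1 FPKM in every library. For macrophages and monocytes the sum was 354 to 464 FPKM in H1 to H4 and 431 to 689 FPKM in N1 to N4, nearly all of it from Ccr2, a chemokine receptor of monocytes that other leukocytes carry as well (342 to 451 FPKM in H1 to H4 and 421 to 679 FPKM in N1 to N4). The macrophage genes C1qa, C1qb, C1qc, Adgre1, Csf1r, Mrc1, Fcgr1 and Cd163 stayed under 2 FPKM in every library. T cell genes reached 814 to 1594 FPKM in H1 to H4 and 768 to 1028 FPKM in N1 to N4, and B cell genes 108 to 870 FPKM in H1 to H4 and 120 to 587 FPKM in N1 to N4. Dendritic cell genes stood at 50.8 to 83.0 FPKM in H1 to H4 and 79.4 to 128 FPKM in N1 to N4, and NK cell and ILC1 genes at 4.33 to 6.81 FPKM in H1 to H4 and 4.97 to 10.3 FPKM in N1 to N4. Of the tissue cells, fibroblast genes came to 11.6 to 46.3 FPKM in H1 to H4 and 10 to 16.5 FPKM in N1 to N4, and adipocyte genes to 4.77 to 8.43 FPKM in H1 to H4 and 3.32 to 5.597 FPKM in N1 to N4. Mesothelial genes were at 4.66 to 7.11 FPKM in H1 to H4 and 4.15 to 6.79 FPKM in N1 to N4. Endothelial sums did not overlap, at 37.4 to 145 FPKM in H1 to H4 against 18.7 to 24.7 FPKM in N1 to N4. Nor did the sums of the ILC2 list, at 7109 to 8026 FPKM in H1 to H4 against 8777 to 10658 FPKM in N1 to N4. Of single tested genes 11.1% did not overlap, and no such share was computed for sums. Calls among the tested genes were 1 higher and 2 lower of 3 for dendritic cells, 2 higher of 4 for endothelium (Vwf and Fabp4) and 4 lower of 15 for ILC2s (Gata3, Il5, Il2ra and Zbtb16), with 0 in the other lists. Over all tested genes 2.86% were called, 0.975% higher and 1.88% lower. The part of these cells in the mast cell levels was not tested.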

How the data were processed

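Per the labels' protocols, total RNA was extracted with Trizol, the SMART-Seq HT Kit gave full-length cDNA, and a TruePrep kit, a chemistry without strand marks, gave the libraries. HISAT2, Cufflinks and the build mm10 appear in the submitters' processing notes, and the sources used here give no versions, annotation or filters. Values are deposited as FPKM, per the file headers. In 14605 of 39527 genes they are below 0, and these genes were left out of the tests. Their reads, 1.73% (N2) to 2.50% (H2) of a library, count in the library totals. The value of 1 read was taken from the genes below 0, where it recurs with 10 factors (0.863 to 1.19) in gene identifier order. It was then applied to the genes above 0. The factor was kept in the main test. It was divided out in an alternative, which also gave whole reads for 100% of the 24107 genes above 0 (relative tolerance 1e-08). Whole numbers do not fix the count of a gene. Il1rl1 was even in all 8 libraries, so its reads may be counted at a multiple, and how many genes share this was not tested. Library totals and the voom fit carry that limit. Each of the 10 mast cell transcripts had an odd count in at least 1 library.

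Genes at 1 FPKM or more in at least 4 libraries (11483) were tested on log2(FPKM + 1) with limma 3.58.1 in R 4.3.3, diet as the only term, trend and robust options and a Benjamini-Hochberg threshold of 0.05. Every fold change sets the high-fat against the normal diet on that scale and understates low genes. Tested on simulated data of 11483 genes, it found 78% of the 2-fold changes and 99% of the 4-fold ones, and 7.33% of its calls were false. The changed genes were drawn at random from all tested genes. Their noise was independent, without a shift shared by the genes of a library such as H2. These shares therefore do not hold for genes as variable as Mcpt4 (standard error 0.66), and the 10 were not simulated on their own. Correlations were tested by exact permutation in Python 3.11.15. The members, lists and settings were chosen with earlier results of these data known. Genes named beyond the 10 are called members of the lists, genes that bear on them, chosen after their values were seen, and the 10 closest in pattern. Coordinates are from GENCODE M21 (mm10) by gene identifier.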

Additional observations from a re-analysis of the deposited data

Results flagged for a closer look

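Within a diet, 6 of 42 groups of 4 libraries held a value far from the others by Dixon's test; chance gives about 1 in 20 groups. All 6 were levels relative to Tpsb2. Groups that share this divisor are not independent, so the count cannot be set against that chance. In H2, Tpsab1 was at 15.8% of Tpsb2 (8.71% to 9.15% in the other high-fat libraries), Hdc at 19.4% (9.15% to 10.7%), Ms4a2 at 1.77% (1.08% to 1.15%) and Mrgprb1 at 6.26% (4.69% to 4.96%). In H3, Fcer1a was at 2.51% of Tpsb2 (3.31% to 3.46% in the others). In N3, Ms4a2 was at 1.62% (1.38% in each of the others). H2 also had the fewest reads and the lowest Tpsb2.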

How the results depend on the processing

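None of the 10 mast cell transcripts was called in any of 17 other settings. The direction of Tpsb2, Tpsab1, Kit, Ms4a2, Fcer1a, Hdc and Mrgprb1 held in all 17. Cma1 reversed without H2 and N2 (0.02), and with single libraries left out it ranged from -0.69 to 0.0828, being above 0 without H2. With single libraries left out Mcpt4 ranged from -0.23 to 0.81, being below 0 without H1, and Cpa3 from -0.19 to 0.63, being below 0 without H1, H4 or N2. The number of genes called over the table moved from 328 to 130 with no filter, to 571 with the factor divided out and to 1505 with limma voom on recovered reads (1117 higher and 388 lower on the high-fat diet, against 112 higher and 216 lower in the main test), and ranged from 129 to 536 with single libraries left out. Voom put the median log2 fold change of all genes at 0.14, against -0.02 in the main test, and the 10 are to be read against that shift. Their median there was -0.28. With the replicate number as a block 191 genes were called. The deviations from the diet means of libraries with the same number correlated at -0.255 to 0.0783. These values showed no pairing by number, but they cannot settle that there was none. The median r of the 45 pairs ranged from 0.68 (without H2) to 0.90 with single libraries left out, and was 0.90 with the factor divided out. As a percent of Tpsb2, the diet differences of Tpsab1 and Kit reversed without H2 (-0.21 and -0.10 percentage points). The cause of these changes was not tested beyond the libraries or genes left out. Each of the 10 had 210 reads or more in every library.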

Other observations

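Genes of serotonin handling were also measured. Tph1, which makes serotonin in peripheral tissues, stood at 36.9, 15.6, 26.6 and 49.1 FPKM in H1 to H4, against 25.8, 46.3, 70.8 and 65.5 FPKM in N1 to N4 (log2 fold change -0.70, limma, adjusted p = 0.431). Slc6a4, the serotonin transporter, stood at 28.3, 8.02, 14.8 and 19.5 FPKM in H1 to H4, against 14.0, 16.4, 21.8 and 22.8 FPKM in N1 to N4 (-0.18, adjusted p = 0.826). Both were lowest in H2 among the high-fat libraries, as the proteases were.

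Mrgprb2, a close relative of Mrgprb1 that serves as a receptor for basic secretagogues on mouse mast cells, stood at 29.4, 7.62, 20.7 and 33.2 FPKM in H1 to H4, against 13.8, 20.1, 37.2 and 33.0 FPKM in N1 to N4. Mcpt8, a protease of basophils, stood at 33.1, 6.63, 16.95 and 32.1 FPKM in H1 to H4, against 13.9, 15.8, 15.4 and 15.4 FPKM in N1 to N4. Its normal-diet values lay close together, and H1, H3 and H4 were above all of them (log2 fold change 0.30, limma, adjusted p = 0.797).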
